A study of Mus musculus with 4 samples.

Results

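The Cyp2c genes of mouse chromosome 19 encode cytochrome P450 enzymes of the CYP2C subfamily. The genes described here are 10 listed members, taken by symbol from the annotation of the mm9 mouse assembly (NCBIM37, GENCODE vM1): Cyp2c29, Cyp2c37, Cyp2c38, Cyp2c39, Cyp2c40, Cyp2c44, Cyp2c50, Cyp2c54, Cyp2c55 and Cyp2c70. They are 10 of the 15 genes whose symbol begins with Cyp2c and of 22367 protein-coding genes in all. Of the 15, 14 form 1 contiguous cluster of 1180 kb at chr19:39081509-40261823, which holds 9 of the members together with Cyp2c65, Cyp2c66, Cyp2c67, Cyp2c68 and Cyp2c69. The tenth member, Cyp2c44, lies apart at chr19:44079512-44103737.

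CYP2C enzymes sit in the endoplasmic reticulum, where they receive electrons from P450 reductase and oxidize drugs, other foreign compounds and fatty acids. Several of the mouse enzymes turn arachidonic acid into epoxyeicosatrienoic or hydroxyeicosatetraenoic acids, which are lipid signals. Many of them are expressed mainly in the liver, under nuclear receptors such as CAR and PXR and hepatocyte transcription factors such as HNF4A, and the genes arose by repeated duplication, so that neighbors are close in sequence.

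The position of this DNA at the nuclear envelope (NE) was measured by DamID, in which a bacterial Dam methylase fused to lamin B1 methylates GATC sites close to the nuclear lamina. Primary hepatocytes of WT mice and of Tm7sf2-/- (KO) mice, 12 to 16 weeks old, received lentiviral Dam-LaminB1 or unfused Dam for 24 h, and the KO lacks Tm7sf2 (NET47), a transmembrane protein of the NE and the endoplasmic reticulum that is also a sterol reductase. There were 4 libraries, 1 of each construct per genotype, each from the pooled DNA of 4 mice. All cells of both genotypes were in culture, and only part of them took up the virus, so the lists describe the transduced cells. The deposited lists give lamina-associated domains (LADs), 1 list per genotype, and differential regions (DRs), the stretches of at least 10 kb that lie in the LADs of 1 genotype only. With 1 LAD list per genotype and no value per animal there was no spread to set a difference against, so every difference between the genotypes below is a description of 2 lists without a test. The lists hold positions only, so the read depth behind a border is unknown from them, and the hepatocyte label could not be checked by marker genes. The study states fewer usable reads for the KO than for the WT, and the part of that difference in the values below was not tested.

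A LAD can begin and end only where Dam leaves a mark, that is at GATC sites. All 28 borders of the 14 WT LADs of the cluster and all 26 borders of the 13 KO LADs had a GATC over the border base. The 4 borders on which the calls of Cyp2c38 and Cyp2c54 turn are shown here on the forward strand of NCBIM37, in lower case with GATC in capitals and the border base in the middle of 61 bases. The first pair bounds the stretch that holds the start of Cyp2c38 and lay in a WT LAD only, and the second pair bounds the stretch of Cyp2c54 that lay in a KO LAD only.
First base of the released stretch of Cyp2c38, chr19:39515247-39515307: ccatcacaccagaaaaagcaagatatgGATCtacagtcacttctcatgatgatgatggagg
Last base of the released stretch of Cyp2c38, chr19:39540233-39540293: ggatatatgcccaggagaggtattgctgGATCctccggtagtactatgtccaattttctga
First base of the KO-only stretch of Cyp2c54, chr19:40137810-40137870: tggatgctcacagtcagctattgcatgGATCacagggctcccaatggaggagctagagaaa
Last base of the KO-only stretch of Cyp2c54, chr19:40148267-40148327: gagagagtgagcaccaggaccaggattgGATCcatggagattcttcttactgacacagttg

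The start windows of 5 members are shown for the same reason. Each runs from 250 bases before the annotated start to 50 bases after it, 5′ to 3′ on the strand of the gene, with GATC in capitals. Cyp2c38, Cyp2c37 and Cyp2c50 had their start in a LAD of WT hepatocytes and outside every KO LAD, Cyp2c29 is shown at the start of its transcript with the most exonic bases, which behaved likewise, and Cyp2c54 started 4 bases past the end of a KO LAD.
Cyp2c38, chr19:39537516-39537815, minus strand: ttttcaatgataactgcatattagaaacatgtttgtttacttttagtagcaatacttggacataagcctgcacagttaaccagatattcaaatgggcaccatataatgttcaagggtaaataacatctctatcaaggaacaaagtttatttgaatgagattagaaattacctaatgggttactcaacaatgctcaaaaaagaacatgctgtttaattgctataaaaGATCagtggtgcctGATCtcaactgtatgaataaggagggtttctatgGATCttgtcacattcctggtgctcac
Cyp2c37, chr19:40066659-40066958, plus strand: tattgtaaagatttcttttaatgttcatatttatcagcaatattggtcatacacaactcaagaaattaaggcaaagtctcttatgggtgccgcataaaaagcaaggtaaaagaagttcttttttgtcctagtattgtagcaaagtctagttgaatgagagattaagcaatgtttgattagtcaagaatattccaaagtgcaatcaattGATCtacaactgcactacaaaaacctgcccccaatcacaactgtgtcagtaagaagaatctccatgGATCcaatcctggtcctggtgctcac
Cyp2c50, chr19:40163928-40164227, plus strand: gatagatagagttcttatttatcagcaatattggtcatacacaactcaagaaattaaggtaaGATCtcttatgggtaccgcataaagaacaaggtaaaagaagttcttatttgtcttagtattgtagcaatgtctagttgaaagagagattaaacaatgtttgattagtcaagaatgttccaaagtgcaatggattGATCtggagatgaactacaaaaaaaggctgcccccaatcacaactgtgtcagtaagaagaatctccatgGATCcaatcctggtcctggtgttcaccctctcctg
Cyp2c29, chr19:39361351-39361650, plus strand: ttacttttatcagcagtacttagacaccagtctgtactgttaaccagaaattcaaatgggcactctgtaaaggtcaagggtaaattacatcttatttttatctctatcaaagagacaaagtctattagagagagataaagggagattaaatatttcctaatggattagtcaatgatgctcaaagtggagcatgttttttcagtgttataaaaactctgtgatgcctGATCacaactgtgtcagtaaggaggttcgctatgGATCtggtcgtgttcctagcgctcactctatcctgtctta
Cyp2c54, chr19:40148252-40148551, minus strand: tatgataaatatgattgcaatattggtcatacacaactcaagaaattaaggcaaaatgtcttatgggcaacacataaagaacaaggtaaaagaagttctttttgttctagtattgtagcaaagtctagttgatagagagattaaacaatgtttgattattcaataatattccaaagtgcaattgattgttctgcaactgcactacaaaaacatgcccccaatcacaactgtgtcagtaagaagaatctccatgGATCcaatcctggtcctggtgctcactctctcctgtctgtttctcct
GATC, which reads the same on both strands, occurred 3 times in the windows of Cyp2c38 and Cyp2c50, 2 times in those of Cyp2c37 and Cyp2c29 and 1 time in that of Cyp2c54. At the outermost annotated start, 7 of the 10 members had at least 1 GATC in such a window, against 46.2% of the 22367 protein-coding genes. The single GATC of the Cyp2c54 window begins at the fourth base of the gene and is the site at which the KO LAD ended.

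In the lists as deposited, the cluster was mostly lamina-associated in WT and lost more than it kept in the KO. The 14 WT LADs covered 883 kb or 74.9% of it, and the 13 KO LADs covered 392 kb or 33.2%. Both genotypes shared 343 kb. A further 540 kb lay in WT LADs only, which is 61.1% of the cluster's WT LAD bases, and 48.8 kb lay in KO LADs only, which is 12.4% of its KO LAD bases. Over chromosome 19 as a whole 39.4% of the bases lay in WT LADs and 18.8% in KO LADs, and 60.8% of the WT LAD bases lay outside KO LADs. The cluster was thus richer in LADs than its chromosome in both genotypes and gave up about the same share of its WT LAD bases. With LADs joined across gaps of up to 50 kb, 43.5% of the cluster's WT LAD bases lay outside KO LADs, so it kept more than it lost.

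Each of the 13 KO LADs of the cluster overlapped a WT LAD, whereas 6 of the 14 WT LADs had no KO LAD on them. WT LADs covered 74.9% of the cluster with gaps of at most 46.4 kb, so a KO LAD had little room to lie apart from them. The mean LAD length in the cluster was 63.1 kb in WT and 30.2 kb in the KO, against 99.9 kb and 28.6 kb on chromosome 19. Shorter LADs in the KO were thus not particular to the cluster. The longest LADs of the cluster measured 126 kb and 93.7 kb. The lost bases of 10 kb or more made up 16 WT-only DRs with a median of 29.1 kb and a longest of 61.3 kb. Of these, 6 were whole WT LADs, 5 lay at one edge of their LAD and 5 were cut out of its inside. There were 2 KO-only DRs, of 19.5 kb at chr19:39442823-39462359 between Cyp2c29 and Cyp2c38 and of 10.5 kb at chr19:40137840-40148297 in Cyp2c54.

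**Figure D1:**
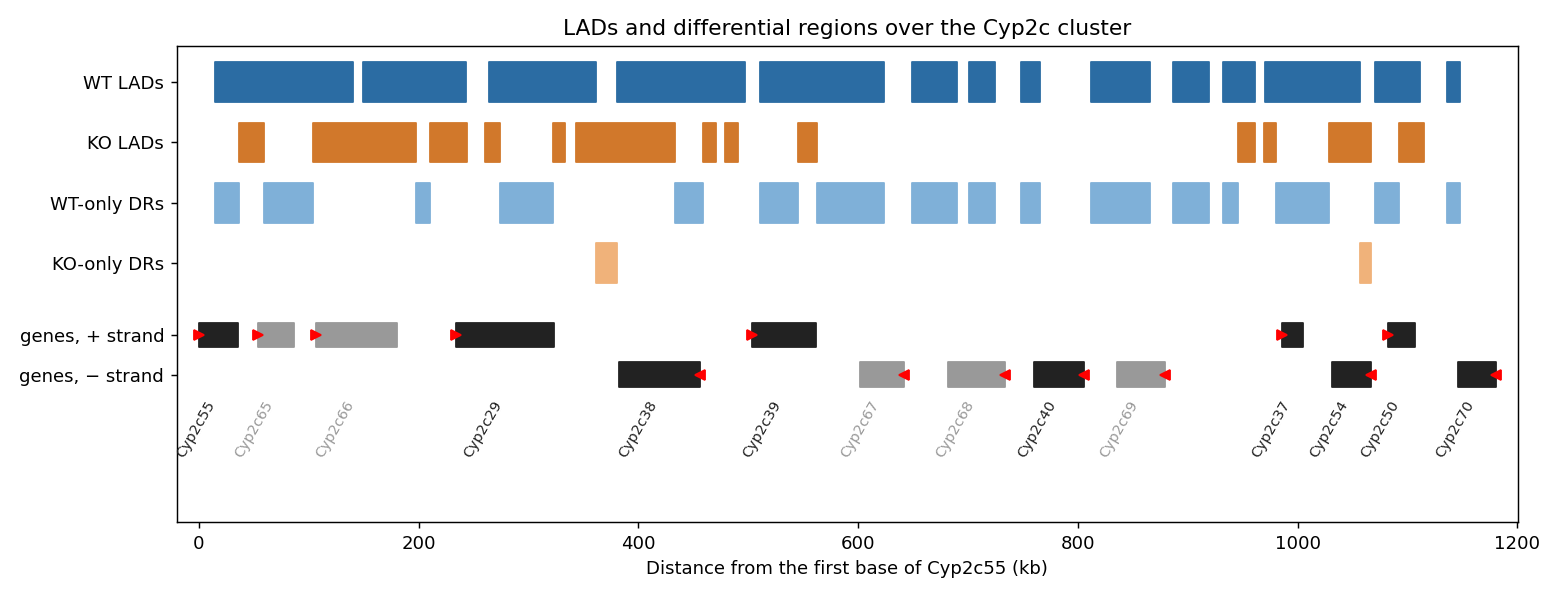
LADs of WT and KO hepatocytes, the differential regions (DRs) and the 14 Cyp2c genes of the cluster, against the distance in kb from the first base of Cyp2c55. Black genes are members, gray genes are the other Cyp2c genes, and red arrowheads mark the starts. WT LADs are spread along most of the cluster with gaps of at most 46.4 kb between them, and the KO LADs leave a gap of 383 kb between Cyp2c39 and Cyp2c37.

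The cluster stood as an island of LADs. In WT the 2520 kb before its first LAD and the 524 kb after its last LAD were free of LADs, and within it the longest gap was 46.4 kb. In the KO the free stretches outside were 1279 kb and 489 kb, and the longest gap inside was 383 kb, at chr19:39643988-40027012. That gap holds the whole of Cyp2c67, Cyp2c68, Cyp2c40 and Cyp2c69. Nearby protein-coding genes, Noc3l, Tbc1d12 and Hells before the cluster and Pdlim1 and Aldh18a1 after it, touched no LAD in either genotype. The first and last LADs of the block stayed close to its ends in both genotypes, 1133 kb apart from outer border to outer border in WT and 1078 kb in the KO.

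The loss was uneven along the cluster. In the stretch from Cyp2c55 to Cyp2c39, which spans 562 kb, LADs covered 85.9% in WT and 54.1% in the KO, and 44.0% of the WT LAD bases lay outside KO LADs. From Cyp2c67 to Cyp2c69, over 278 kb, the share went from 57.0% to 0, with 100% of the WT LAD bases lost. From Cyp2c37 to Cyp2c70, over 195 kb, it went from 63.7% to 31.1%, with 62.6% lost. These 3 stretches were drawn after the values had been seen.

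By gene span, 8 members were PI, the class of genes that share 1 base or more with a WT-only DR, so that the call covers genes that were released in part only. They are Cyp2c29, Cyp2c37, Cyp2c38, Cyp2c39, Cyp2c40, Cyp2c50, Cyp2c55 and Cyp2c70. Among all 22367 protein-coding genes 5.43% were PI, and among the 724 of chromosome 19 the share was 14.9%. Only a gene that touches a WT LAD can be PI, and 9 of the 10 members touched a WT LAD. On chromosome 19 this was so for 169 of the 724 genes, and 108 of them were PI. Cyp2c54 was IP, the class of genes that overlap a KO-only DR, which took in 17.1% of all protein-coding genes and 4.70% of those of chromosome 19. No member was ambiguous (AMB, overlapping both kinds of DR), against 2.96% of all genes and 1.66% on chromosome 19. Cyp2c44 was II, outside the LADs of both genotypes. Neighbors in a cluster share LADs, so the 8 PI members are not 8 separate observations. When at least 50% of the span had to lie in a DR, 4 members were PI, Cyp2c38 and Cyp2c50 were PP, and Cyp2c40 and Cyp2c70 were II. With LADs joined across gaps of up to 50 kb, Cyp2c29, Cyp2c38, Cyp2c37 and Cyp2c50 were PP. With LADs of at least 20 kb in both lists 6 members were PI, and Cyp2c40 and Cyp2c70 were II. The 5 other Cyp2c genes were, by the 1-base rule, 4 PI and 1 in LADs of both genotypes (PP), namely Cyp2c66.

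The median member had 73.3% of its span in LADs in WT and 13.2% in the KO, whereas the median over all protein-coding genes was 0 in both genotypes. Of the 10 members, 9 touched a WT LAD and 5 a KO LAD, against 30.4% and 41.7% of all protein-coding genes, so the KO count was near the overall share. The other 4 that touched a WT LAD, Cyp2c55, Cyp2c40, Cyp2c37 and Cyp2c70, touched no KO LAD.

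**Figure D2:**
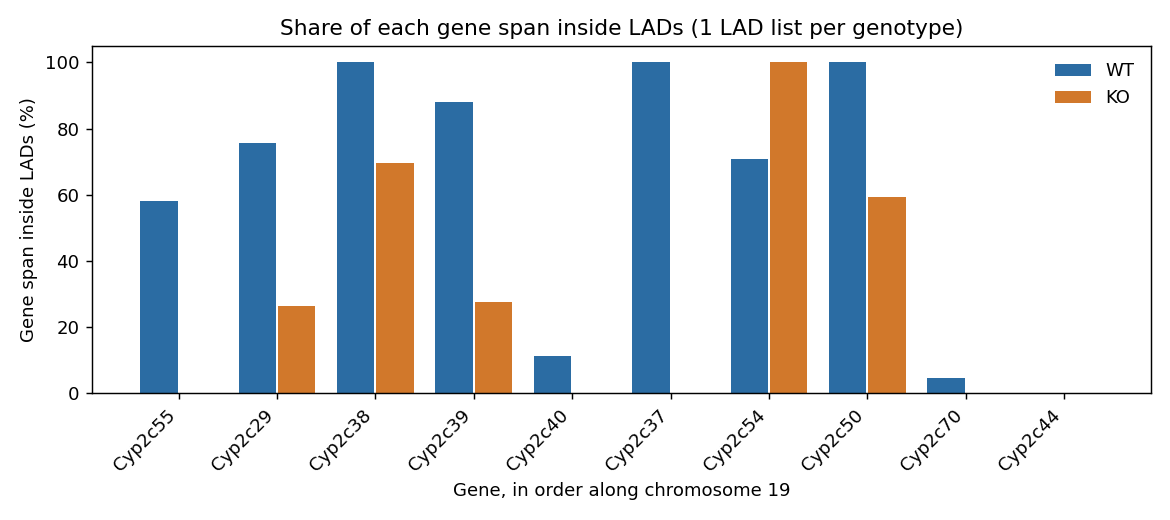
Percent of the span of each member inside WT LADs (blue) and KO LADs (orange), with the genes in order along chromosome 19 and 1 LAD list per genotype, so that bars carry no error. Blue exceeds orange in 8 members, Cyp2c54 is the exception with 70.8% against nearly its whole span, and Cyp2c44 has no bar.

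Among the arachidonic acid epoxygenases, Cyp2c29, which encodes an abundant liver enzyme induced by phenobarbital, lies on the plus strand at chr19:39315441-39405189. LADs covered 75.8% of its 89.7 kb in WT and 26.5% in the KO, and a WT-only DR took 54.4%. A KO-only stretch shorter than the 10 kb limit of a DR covered 5.07% of it. Its outermost start lay in a LAD in both genotypes, but that start belongs to a transcript that begins far upstream. The start of the transcript with the most exonic bases, at position 39361601, lay in a WT LAD and 6.12 kb from the nearest KO LAD.

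Cyp2c38 encodes another epoxygenase and lies on the minus strand at chr19:39464046-39537565. LADs took in all of its 73.5 kb in WT and 69.7% in the KO. The 30.3% that was released is the 5′ part of the gene with the start, which lay 2.70 kb from the nearest KO LAD. The released stretch runs over chr19:39515277-39540263, whose borders are printed above.

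Cyp2c37 lies on the plus strand at chr19:40066909-40086738, and its enzyme also acts on arachidonic acid. In the lists as deposited it was the only member that lay wholly in WT LADs and wholly outside KO LADs. WT LADs held the whole 19.8 kb and KO LADs no base of it, although the nearest KO LAD ended 4.84 kb from its start. A WT-only DR of 48.0 kb covered the gene on both sides. With LADs joined across gaps of up to 50 kb it lay in LADs of both genotypes, and its share in a DR went from 100% to 0.

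Cyp2c50, at chr19:40164178-40188440 on the plus strand, lay wholly in a LAD in WT (100% of 24.3 kb), and 59.2% of it did in the KO. The released 40.8% was again the 5′ part, and the start lay 9.90 kb from the nearest KO LAD.

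Cyp2c54, on the minus strand at chr19:40112431-40148301, differed in direction over its span. LADs covered 70.8% of its 35.9 kb in WT, and in the KO all of it but the first 4 bases. The added 29.2% is the 5′ part of the gene. The start lay 3239 bp from the nearest WT LAD and 4 bp from a KO LAD, so that a rule on starts counts it outside LADs in both genotypes. The direction of Cyp2c54 rests on how the LADs are read. The KO-only minus the WT-only share was 29.2 percentage points over its span and -41.8 in a window of 100 kb centered on the gene. With LADs joined across gaps of up to 20 kb it was -0.0112, which is nearly no difference. Cyp2c54 stands between Cyp2c37 and Cyp2c50, both of which moved out of LADs at their starts. The coding sequence of Cyp2c54 was 95.2% identical to that of Cyp2c50, and Cyp2c37 and Cyp2c50 were 96.1% identical.

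Cyp2c44, whose enzyme is an epoxygenase of liver and kidney, touched no LAD. Its 24.2 kb lay 618 kb from the nearest WT LAD and 551 kb from the nearest KO LAD. The 3 nearest protein-coding genes on each side, Gm10768, Dnmbp and Cpn1 and on the other side Erlin1, Chuk and Cwf19l1, touched none either. It was the member least like the others in sequence, with at most 66.9% coding identity to another Cyp2c gene.

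Cyp2c39, which encodes a retinoic acid hydroxylase, lies on the plus strand at chr19:39585352-39643019. LADs covered 88.2% of its 57.7 kb in WT and 27.6% in the KO, with 60.6% in a WT-only DR. The start lay outside LADs in both genotypes, 6.60 kb from the nearest WT LAD and 13.5 kb from the nearest KO LAD. Here the part kept in the KO was the 3′ part.

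Cyp2c55 and Cyp2c40, whose enzymes make hydroxylated arachidonic acids and are better known from the intestine, kept no LAD base in the KO. Cyp2c55, the first gene of the cluster at chr19:39081509-39117183, had 58.2% of its 35.7 kb in a WT LAD, with the start 14.9 kb from it. The nearest KO LAD began 0.875 kb past the 3′ end of the gene. Cyp2c40, at chr19:39841561-39887304 on the minus strand, had 11.2% of its 45.7 kb in a WT LAD of 17.1 kb, at the 3′ end. The distance from its start to the nearest LAD was 5.84 kb in WT and 140 kb in the KO. Its KO-only minus WT-only share, -11.2 percentage points, became -100 with LADs joined across gaps of up to 50 kb and 0 with LADs of at least 20 kb.

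Cyp2c70, which encodes the enzyme that makes muricholic acids, the bile acids typical of mice, is the last gene of the cluster at chr19:40227843-40261823. It had the smallest overlap of the 8 PI members. A WT LAD of 12 kb took in 1.60 kb or 4.70% at its 3′ end and was gone in the KO, and its start lay 32.4 kb from the nearest LAD in WT and 65.4 kb in the KO. Under a rule that asks for at least 10% of the span it was the only member whose class changed, to II.

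Among the other Cyp2c genes, Cyp2c65 had 100% of its span in LADs in WT and 16.5% in the KO, with its start in a LAD in both genotypes. Cyp2c66 was the only gene of the cluster in the PP class, with 87.1% in WT and 100% in the KO. Cyp2c67, Cyp2c68 and Cyp2c69 fell from 54.7%, 60.9% and 69.1% to 0, so that with Cyp2c40 they form a run of 4 genes with no LAD in the KO. The coding sequence of Cyp2c40 was 98.1% identical to Cyp2c68, its closest relative among the Cyp2c genes.

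Starts and 3′ ends differed. In WT hepatocytes 4 of the 10 members had their start in a LAD, Cyp2c29, Cyp2c38, Cyp2c37 and Cyp2c50, and in the KO 1 had, Cyp2c29. Over all protein-coding genes 22.7% of starts lay in LADs in WT and 32.8% in the KO. The 3′ end lay in a WT LAD in all 14 Cyp2c genes of the cluster, including its 9 members, against 26.4% of all protein-coding genes. All 14 touched a WT LAD, and of the 6805 protein-coding genes that touched one, 5903 had their 3′ end in one. In 8 of the 14 the 3′ end lay in a WT LAD with the start outside. In the KO 6 of the 14 genes had their 3′ end in a LAD, against 31.8% of all genes, and 3 their start. Among the 6805 protein-coding genes touching a WT LAD, 1189 had the 3′ end inside and the start outside, and 363 the opposite. Among the 9330 touching a KO LAD the numbers were 1242 and 1467. The 3′ ends were examined after the LADs of the genes had been seen.

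The exons followed the same order. Each member was described by its 9 exons, and of the 90 exons in all, 36 touched a LAD in WT only, 5 in KO only, 17 in both and 32 in neither. Exons of the same gene share LADs, so the 90 exons are not separate observations. The shares over the exons of all genes are not given here, so these counts have no background. All 9 exons of Cyp2c37 were WT only. In Cyp2c29, Cyp2c38 and Cyp2c50 the first 8, 3 and 7 exons were WT only and the last 1, 6 and 2 were kept in the KO. In Cyp2c39 exons 1 to 3 lay in no LAD, exons 4 and 5 in a WT LAD only and exons 6 to 9 in both. The 5 KO-only exons were exons 1 to 5 of Cyp2c54, whose last 4 exons lay in LADs of both genotypes. In Cyp2c55 exons 5 to 9 were WT only, and in Cyp2c40 and Cyp2c70 exon 9 alone was. In the 5 members with exons in LADs of both genotypes these were the last exons of the gene. This did not hold for every other Cyp2c gene. Cyp2c65 kept exon 1 while its exons 2 to 9 were WT only, and all 9 exons of Cyp2c66 lay in LADs of both genotypes.

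**Figure D3:**
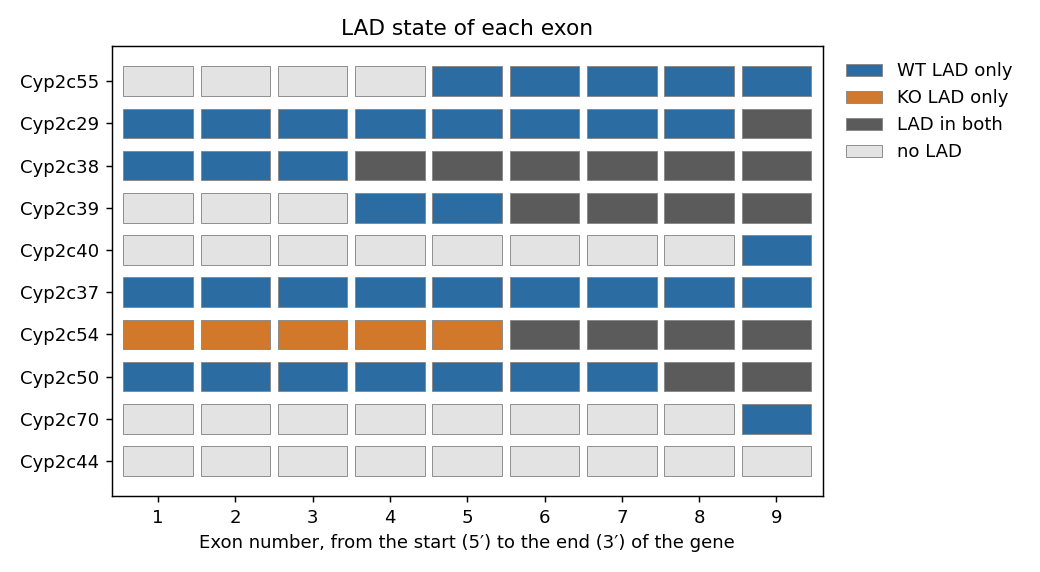
LAD state of exons 1 to 9 of each member, from the 5′ to the 3′ end, where an exon counts as in a LAD if it shares at least 1 base with it. Of 90 exons 36 are WT only (blue), 5 KO only (orange), 17 in both (dark gray) and 32 in no LAD (light gray), and the dark exons sit at the 3′ end of their genes.

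The duplicated sequence of the cluster bears on how well reads can be placed. An end of 50 bases that begins at a GATC site, read in either direction, occurred again at another GATC site of the genome for 35.8% of the 7354 such ends in the cluster, against 11.3% on chromosome 19. The share was 17.0% in the WT LADs of chromosome 19 and 22.6% in its KO LADs. By member the share ranged from 3.39% in Cyp2c44, 7.61% in Cyp2c70, 8.33% in Cyp2c55 and 9.80% in Cyp2c37 to 43.9% in Cyp2c38. It was 39.5% in the bases of the cluster kept in both genotypes, 34.8% in the WT-only DRs, 48.5% in the KO-only DRs and 27.2% outside LADs. In the stretch from Cyp2c67 to Cyp2c69, with no LAD in the KO, it was 47.9%. Cyp2c37 is thus among the members with few repeated ends. The read length and the handling of reads with several matches are not given in the sources used here, 50 bases was chosen here, and the part of repeated ends in the LAD calls was not tested.

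**Figure D4:**
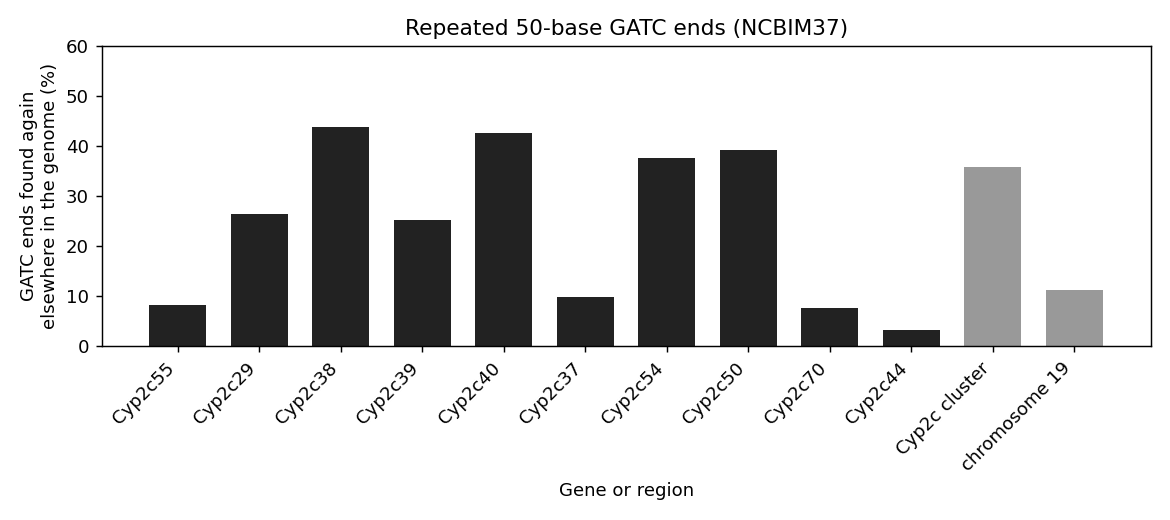
Percent of the 50-base ends at GATC sites that are found again at another GATC site of the NCBIM37 genome, for the 10 members (black) and for the cluster and chromosome 19 (gray). The cluster stands at 35.8% against 11.3% for chromosome 19, with Cyp2c37, Cyp2c55, Cyp2c70 and Cyp2c44 each below 10%.

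GATC sites were somewhat denser in the cluster, at 3.12 per kb against 2.46 per kb on chromosome 19, and its GC content was 39.0% against 42.7%. The WT and KO LADs of chromosome 19 held 2.61 and 2.74 sites per kb, with GC contents of 40.0% and 40.6%. Inside the cluster the bases kept in both genotypes held 3.52 sites per kb, the WT-only DRs 3.17, the bases outside LADs 2.50 and the KO-only DRs 2.23. The median distance between neighboring sites in the cluster was 199 bp.

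The other P450 families were set beside the cluster as lists chosen by symbol. The Cyp3a cluster on chromosome 5, with 8 genes in 819 kb, went from 89.2% in LADs to 33.1%, with 62.9% of its WT LAD bases outside KO LADs, and 8 of the 9 Cyp3a genes were PI. The Cyp2a and Cyp2b cluster on chromosome 7, with 9 genes, went from 48.8% to 21.7%, with 66.9% of its WT LAD bases outside KO LADs. In it 2 of 4 Cyp2a and 3 of 5 Cyp2b genes were PI. The Cyp4a cluster on chromosome 4 changed less in its share in LADs, from 64.7% to 59.9%, with 2 of 6 genes PI. Bases moved both ways there: 28.6% of its WT LAD bases lay outside KO LADs, and 22.9% of its KO LAD bases outside WT LADs. The 8 Cyp2d genes were all II, and of the 7 Cyp2j genes 5 were PP, 1 PI and 1 IP. Over all 22367 protein-coding genes 5.43% were PI, 17.1% IP and 56.6% II, and 4011 genes were PP. The Cyp2c cluster therefore had a share of lost bases, 61.1%, close to those of the Cyp3a and the Cyp2a and Cyp2b clusters. These lie on other chromosomes, whose own shares of lost bases are not given here. No test of the differences between clusters was possible.

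**Figure D5:**
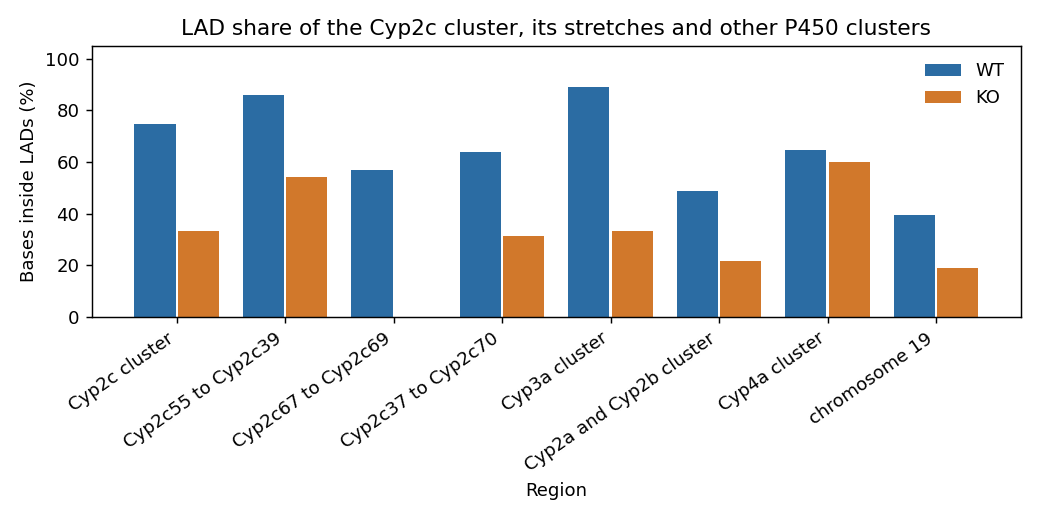
Percent of bases inside WT LADs (blue) and KO LADs (orange) for the Cyp2c cluster, its 3 stretches, 3 other P450 clusters and chromosome 19, from 1 LAD list per genotype. The stretch from Cyp2c67 to Cyp2c69 falls to 0 in the KO, and the Cyp4a cluster changes least in covered share, from 64.7% to 59.9%.

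The partners and regulators of CYP2C enzymes lay outside LADs. Of 11 genes considered, 10 were found in the annotation, and Cyb5a was not analysed here. They are Por, the P450 reductase, Cyb5b and Cyb5r3 of the cytochrome b5 system, the epoxide hydrolases Ephx1 and Ephx2, and the transcription factors Nr1i2 (PXR), Nr1i3 (CAR), Hnf4a, Cebpa and Rxra. All 10 were II, as were 56.6% of all protein-coding genes, and in a window of 100 kb centered on the gene Ephx2 was IP.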

How the data were processed

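Hepatocytes of WT and Tm7sf2-KO mice gave 4 DamID libraries of pooled DNA, 1 with the lamin fusion and 1 with unfused Dam per genotype. The submitters' processing notes name BWA, limma and mm9. The authors took the ratio of Dam-LaminB1 to Dam only along the genome and segmented it into LADs by circular binary segmentation (DNAcopy). The deposited intervals, in 2 lists of LADs and 2 lists of DRs, carry no signal or depth. Subtracting one LAD list from the other, with a minimum of 10 kb, gave back the 7787 DRs of WT and the 8208 DRs of the KO, border by border.

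The lists were set against the NCBIM37 genome (mm9) and GENCODE vM1, with positions counted from 1. A gene was PI or IP if at least 1 base of its span overlapped a WT-only or a KO-only DR, AMB if both, PP if neither but in LADs of both genotypes, and II otherwise. For exons, the coding transcript with the largest summed exon length was taken. Overlaps were computed in Python 3.11.15 with numpy 2.4.6, coding identity with Biopython 1.88 (global alignment, gaps left out) and pictures drawn with matplotlib 3.10.9. Overlap and subtraction were tested on simulated data, in 200 sets. GATC ends of 50 bases were compared over the chromosomes in the lists. Alternatives were other overlap rules, windows of 100 kb, LADs of at least 20 kb, and LADs joined across gaps of up to 20 or 50 kb.

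The named genes are the members, all other Cyp2c genes, the 3 nearest protein-coding genes on each side, and P450 families and partner genes as lists, of which 1 partner gene and 1 neighboring gene are not reported here. Members and lists were chosen with earlier results of these data known. No test between genotypes was made, since each has 1 pooled library pair. Expression was not analysed here.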

Additional observations from a re-analysis of the deposited data

How the results depend on the processing

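A value was counted as unchanged when it stayed within a factor of 1.5. Of 62 values for counts and the cluster, 41 stayed so and 21 did not. Of 50 per-member values 33 stayed, 15 moved and 2 changed sign. The number of PI members, 8, became 4 when at least 50% of the span had to lie in a DR, 3 by the start alone and 4 with LADs joined across gaps of up to 50 kb. The 1 IP member became 0 under each of these 3 rules, in windows of 100 kb and with LADs joined across 20 kb. The number of AMB members, 0, became 3 in windows of 100 kb, and 1 (Cyp2c29) with differences of any length and with LADs joined across 20 kb. For Cyp2c54, the KO-only minus the WT-only share of its span, 29.2 percentage points, turned to -41.8 in a window of 100 kb. With LADs joined across 20 kb it was -0.0112, a change of sign that left nearly no difference but turned the class of Cyp2c54 from IP to PI. The number of PI members stayed at 8 under that rule, with Cyp2c54 in place of Cyp2c29.

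Joined across 50 kb, KO LADs covered 54.2% of the cluster and 0% of their bases lay outside WT LADs. By that rule 43.5% of the cluster's WT LAD bases lay outside KO LADs, so it kept more than it lost. With the same joining 7 members had their start in LADs in WT and 5 in the KO, and 20 exons were WT only and 0 KO only. Joined across 20 kb, 5.65% of the KO LAD bases lay outside WT LADs and 0 exons were KO only. Members with a start in a KO LAD numbered 0 by the transcript with the most exonic bases, and 2 when a start up to 1 kb outside a LAD counted, a rule chosen after seeing the data, under which Cyp2c54 was added. With 1 list per genotype and no read numbers, the error of a border is unknown. No paired analysis was possible because each group has 1 library and the values come from no test.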
